A study of Mus musculus with 18 samples.

Results

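Libraries of BMC, an immortalised mouse brown preadipocyte line differentiated into brown adipocytes, were compared by the replicate number that ends their titles. The 6 libraries numbered 2 or 5 were set against the 6 numbered 1 or 4, which makes 12 of the 18 libraries of the series. These sets were selected on measured expression values: the numbers were grouped from the same gene counts that are described here. The difference between the sets is therefore given as a description with no p-value. The remaining 6 libraries, numbered 3 and 6, are shown beside them for reference.

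The series profiled total RNA around the induction of lipolysis, in which stored triglyceride is broken down. Libraries are labelled as not induced (0 h) or as taken 4 h or 24 h after 1 µM norepinephrine was added. All cells had passed through the same differentiation, with insulin and triiodothyronine throughout and with dexamethasone, indomethacin and isobutylmethylxanthine at its start. Each set holds 2 libraries of each of the 3 labelled times, so neither set stands for a time. All 18 libraries carry the same batch label, BMC is a single line, and the labels do not tie a library to its own culture. The p-values given further on therefore rest on the variation among these 12 libraries alone, and that variation may be technical.

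Brown adipocytes burn lipid to make heat. Norepinephrine acts on their beta-adrenergic receptors, which raise cyclic AMP and activate protein kinase A. The kinase starts the breakdown of triglyceride droplets and, through the factor CREB, the transcription of immediate early genes such as Fos and Nr4a1. These genes need no new protein to be switched on, and their transcripts are short-lived. CREB binds the cyclic AMP response element (CRE), the palindrome TGACGTCA, or its core TGACG.

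Of the 15128 genes measured above the filter on low counts, 337 (2.23%) were higher in numbers 2 and 5 and 422 (2.79%) were lower by the rule used throughout. A gene is past this rule when its fitted log2 fold change (numbers 2 and 5 minus 1 and 4, labelled time in the model) is at least 1 in size and the 6 and 6 libraries do not overlap. Without regard to size, the 6 and 6 libraries did not overlap for 2522 genes (16.7%) that were higher and 2749 (18.2%) that were lower. The median log2 fold change over all genes measured was -0.01. Just inside the rule lay Smpdl3a (1.002) on the higher side and Tbc1d16 (-1.0005) on the lower, and just outside it Crebrf (0.999) and Rcor2 (-0.999). Of the genes past the rule, 246 higher and 357 lower ones are annotated as protein coding. Scaled by library totals alone, which places the median gene at -0.10, 146 genes were higher and 521 lower. Scaled by totals without ribosomal RNA and mitochondrially encoded genes, 356 were higher and 397 lower. The cause of the difference between the sets was not tested.

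**Figure D1:**
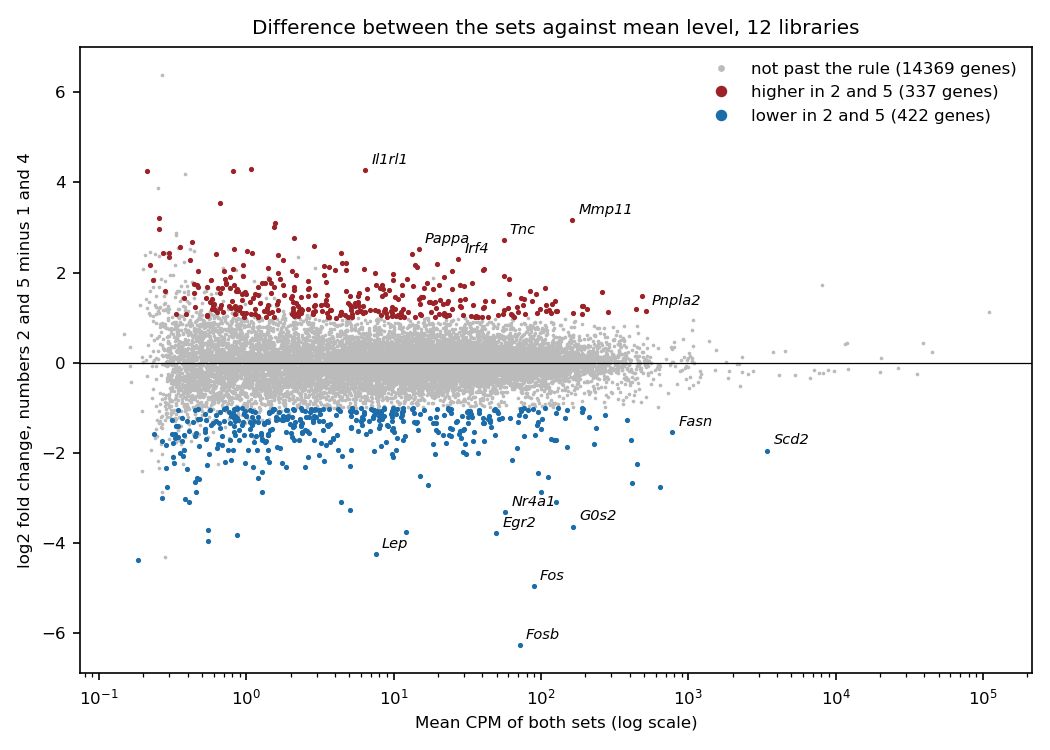
Each point is 1 of the 15128 genes, with its mean CPM over the 12 libraries on a log axis and its fitted log2 fold change, numbers 2 and 5 minus 1 and 4. Red and blue mark the 337 higher and 422 lower genes past the rule, with Fosb (-6.26) and Fos (-4.96) lowest among the named genes and Il1rl1 (4.28) and Mmp11 (3.16) far to the other side.

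Immediate early genes made the widest gap. Of 30 such transcription factors and related genes, 19 were lower in numbers 2 and 5 and 0 were higher, beside 2.79% and 2.23% of all genes measured. The same shares are the background for each later count of genes past the rule. The list median was -1.39 in log2 beside -0.01 over all genes. Fos, which forms the AP-1 factor with Jun proteins (chromosome 12, 85473890 to 85477273, plus strand, mm10), lay between 112 and 214 CPM in numbers 1 and 4, with a median of 179. In numbers 2 and 5 it lay between 4.07 and 7.12 CPM with a median of 5.12, so every library of one set exceeded every library of the other. Its log2 fold change was -4.96 (SE 0.15).

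The promoters of Fosb, Btg2 and Dusp1, chosen after their values were seen, are shown because each holds the letters of the element that CREB binds. Capitals mark the full site or, elsewhere, its core. Each is the stretch of 250 bases before the gene's start, on the gene's own strand, from the RefSeq promoters of build GRCm38.p6. The Fosb stretch (chr7:19310046-19310295, minus strand) holds 1 core. That of Btg2, an antiproliferative gene (chr1:134079156-134079405, minus strand), holds 1 full site, which reads as the core on both strands. That of Dusp1, a phosphatase that switches off MAP kinases (chr17:26508473-26508722, minus strand), holds 1 full site and 1 further core.
Fosb: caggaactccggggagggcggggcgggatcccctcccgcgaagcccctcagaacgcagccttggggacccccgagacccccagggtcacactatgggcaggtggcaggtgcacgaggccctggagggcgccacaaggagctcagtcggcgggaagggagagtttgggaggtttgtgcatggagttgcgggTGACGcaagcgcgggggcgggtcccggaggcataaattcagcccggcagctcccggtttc
Btg2: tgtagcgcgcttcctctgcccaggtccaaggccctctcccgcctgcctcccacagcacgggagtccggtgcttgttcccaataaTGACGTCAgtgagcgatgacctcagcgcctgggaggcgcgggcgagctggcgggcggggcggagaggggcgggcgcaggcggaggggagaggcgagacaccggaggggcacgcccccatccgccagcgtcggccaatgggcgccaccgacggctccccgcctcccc
Dusp1: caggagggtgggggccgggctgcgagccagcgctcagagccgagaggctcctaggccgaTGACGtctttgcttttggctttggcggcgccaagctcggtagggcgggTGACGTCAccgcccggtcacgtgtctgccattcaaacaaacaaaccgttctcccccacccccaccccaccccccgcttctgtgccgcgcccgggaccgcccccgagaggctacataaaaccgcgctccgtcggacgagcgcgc

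Promoters of 300 bases (250 before and 50 after the start) were searched on both strands, and 254 of the lower genes, 205 of the higher and 9886 of all genes measured had one under their symbol. The full CRE was present in 10 of 342 promoters (2.92%) of the genes lower in numbers 2 and 5, in 6 of 284 (2.11%) of those higher, and in 391 of 12641 (3.09%) of all genes measured. The core TGACG, which also counts every full site, was present in 23.4%, 21.5% and 30.5% of the same promoters. Among the 19 immediate early genes past the rule, 14 had 21 promoters in the table, of which 15 (71.4%) held the core and 1 (4.76%) the full site. Several of these promoters belong to 1 gene, Egr2 having 5. The AP-1 site TGANTCA was present in 5.85% of promoters of lower, 8.45% of higher and 5.17% of all genes, the E-box CACGTG in 8.77%, 12% and 9.75%, and the Nr4a site AAAGGTCA in 1.75%, 0% and 0.91%. A match describes the letters only.

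Fosb, of the same family as Fos, lay between 91.9 and 181 CPM in numbers 1 and 4 (median 145). In numbers 2 and 5 it lay between 0.88 and 3.33 CPM (median 1.17). The sets lay far apart, with a log2 fold change of -6.26 (SE 0.19). Egr2, a zinc finger factor of the early growth response family, spanned 78.6 to 105 CPM (median 94.7) against 5.99 to 7.82 (median 6.73), log2 -3.78 (SE 0.07). Nr4a1, an orphan nuclear receptor (chromosome 15, 101254269 to 101274795, plus strand), spanned 77.1 to 133 CPM (median 105) against 8.32 to 11.4 (median 9.63), log2 -3.31 (SE 0.18). The sets did not overlap for either gene. Btg2 had 131 to 225 CPM against 15.7 to 26.3, log2 -2.86 (SE 0.15), and Dusp1, of the MAP kinase list, had 178 to 203 against 29.4 to 33.6, log2 -2.54 (SE 0.04). Neither gene had overlapping sets.

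The other immediate early genes past the rule were Egr1, Egr3, Ier2, Ier3, Atf3, Jun, Junb, Srf, Klf2, Klf6, Csrnp1, Zfp36, Arc and Cyr61, with log2 fold changes from -1.05 for Klf2 to -3.75 for Egr3. Egr1 spanned 973 to 1292 CPM in numbers 1 and 4 and 157 to 174 in numbers 2 and 5. Members of the same families did not all follow. Nr4a2 and Nr4a3 had log2 fold changes of 0.27 and 0.43, and Fosl1 and Fosl2, the Fos-related antigens, were higher without overlap but short of the rule (0.93 and 0.28). Arc, Csrnp1 and Srf stood at 60.6, 17.6 and 46.9 CPM on average in numbers 1 and 4 and at 14.4, 5.39 and 21 in numbers 2 and 5.

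Several of these genes were lower still in numbers 3 and 6. Fos had 2.72 to 4.41 CPM there, Fosb 0.46 to 1.01, Nr4a1 5.06 to 6.53 and Egr2 4.10 to 5.97. Over the list, the mean log2 CPM per library was 5.73 to 6.13 in numbers 1 and 4, 4.15 to 4.47 in numbers 2 and 5, and 3.68 to 3.90 in numbers 3 and 6. The 3 ranges do not touch.

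**Figure D2:**
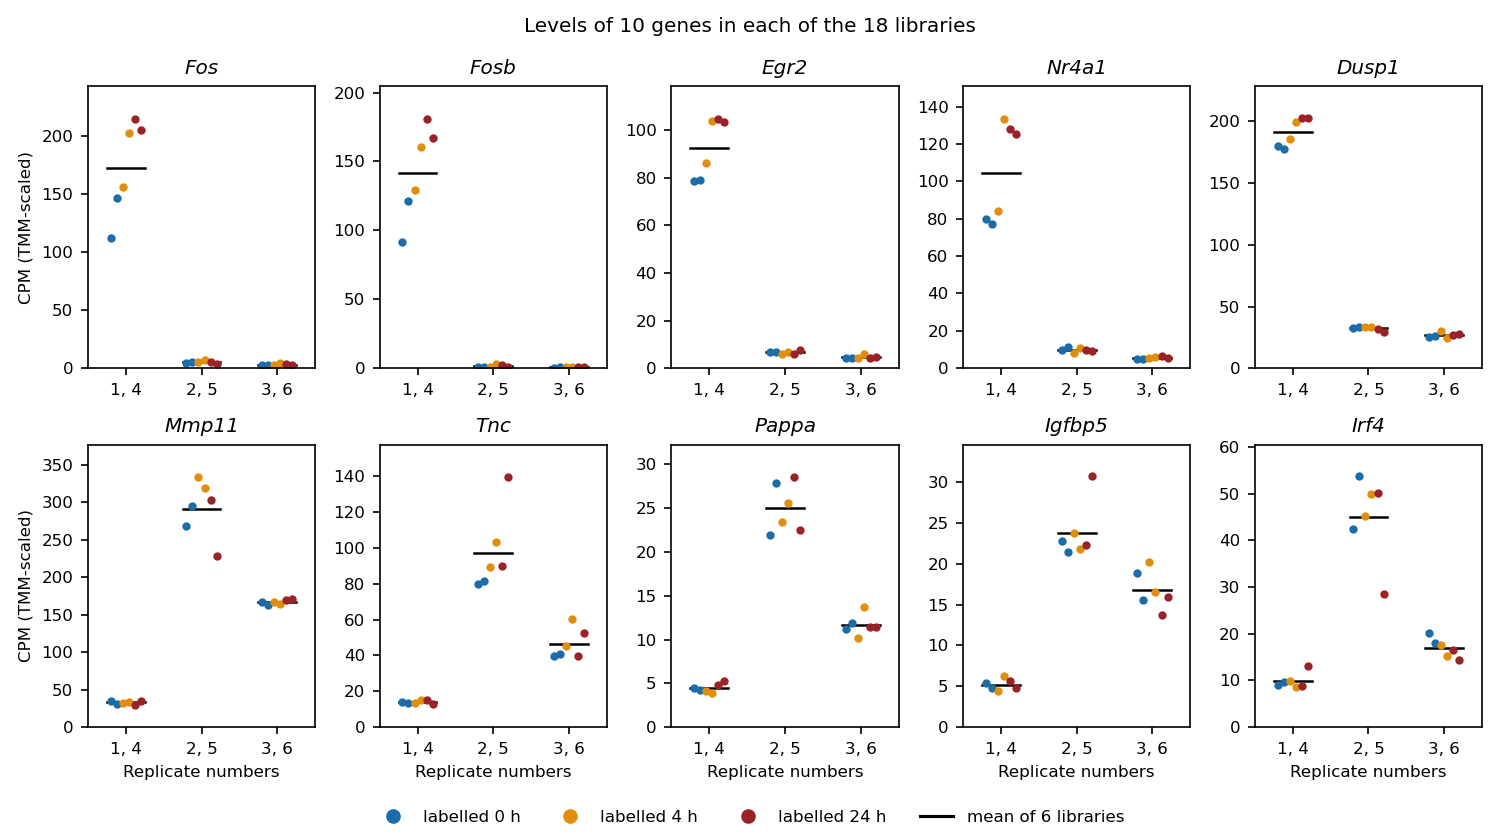
Levels in CPM, scaled by trimmed mean of M values, of 10 genes in each of the 18 libraries, which are grouped by replicate numbers and coloured by labelled time, with the mean of 6 libraries as a bar. Fos, Fosb, Egr2, Nr4a1 and Dusp1 are high only in numbers 1 and 4, while Mmp11, Tnc, Pappa, Igfbp5 and Irf4 are highest in numbers 2 and 5 with numbers 3 and 6 between.

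Among genes that damp or relay cyclic AMP, members went both ways. Of 20 feedback genes 4 were higher and 2 lower, with a median of 0.29. The higher ones are Pde3a, Pde4d and Pde7b, phosphodiesterases that break down cyclic nucleotides, and Rgs4, which shortens G protein signals. Pde4d stood at 13.2 CPM on average in numbers 1 and 4 and at 33.5 in numbers 2 and 5 (log2 1.37). Pde7b spanned 1.69 to 2.03 CPM against 4.33 to 5.92 (log2 1.495, SE 0.12). The lower ones, Nr4a1 and Dusp1, are also immediate early genes. Pde4b, another phosphodiesterase, had 14.3 to 17.03 CPM against 25.8 to 33.9, without overlap but short of the rule at 0.89 (SE 0.06), and numbers 3 and 6 were below both at 9.77 on average.

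Of 20 measured adrenergic receptors and genes of cyclic AMP production, 4 were lower and 1 higher, with a median of -0.21. Adrb1, the beta-1 receptor, was among the lower ones, with 6.77 to 8.11 CPM against 2.51 to 3.44 (log2 -1.42, SE 0.10). Adrb3, the main beta receptor of adipocytes (chromosome 8, 27225776 to 27250616, minus strand), spanned 38.6 to 42.6 CPM (median 40.7) in numbers 1 and 4 and 22.9 to 30.4 (median 24.2) in numbers 2 and 5. The sets did not overlap, and the log2 fold change of -0.70 (SE 0.05) was short of the rule. Numbers 3 and 6 were higher than both, at 80.2 to 99.4 CPM. The adenylyl cyclase genes differed in direction, Adcy3 being higher (9.96 to 13.9 CPM against 24.1 to 29.9) and Adcy7 lower (8.31 and 3.85 on average). The alpha-2 receptor Adra2a was lower, at no more than 1.46 CPM in any library. Of 15 MAP kinase phosphatases and Sprouty genes 3 were lower, Dusp1, Dusp8 (-1.29) and Dusp10 (-1.23), and 0 higher. Of all genes measured 2.79% were lower and 2.23% higher.

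Genes of heat production were mostly short of the rule. Without overlap, 11 of 19 were lower and 2 higher, beside 18.2% and 16.7% of all genes measured. Ucp1, the uncoupling protein (chromosome 8, 83290352 to 83298452, plus strand), spanned 12.1 to 17.03 CPM in numbers 1 and 4 (median 14.7) and 8.82 to 10.3 in numbers 2 and 5 (median 10.1). The sets did not overlap, and the log2 fold change was -0.59 (SE 0.07). In numbers 3 and 6 Ucp1 had 1.02 to 2.505 CPM, below both. Ppargc1a, the coactivator of mitochondrial biogenesis, spanned 122 to 132 against 99.4 to 113 CPM (-0.23, SE 0.03), and Cidea, a lipid droplet protein of brown fat, overlapped fully (-0.06, SE 0.07). Of the 19 thermogenic genes measured 4 were lower past the rule and 0 higher, beside 2.79% and 2.23% of all genes (list median -0.23). These 4 were at low levels: Dio2, the deiodinase that activates thyroid hormone, had 1.85 to 2.60 CPM against 0 to 0.503, and Elovl3, Fgf21 and Otop1 averaged 0.708, 0.749 and 1.53 CPM in numbers 1 and 4. No fold is given for Dio2, Elovl3 and Fgf21, which were at 0 in at least 1 library of numbers 2 and 5.

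In triglyceride breakdown, the main lipase and its inhibitor lay on opposite sides. Pnpla2, adipose triglyceride lipase (chromosome 7, 141455198 to 141460743, plus strand), was higher, with 294 to 391 CPM in numbers 1 and 4 (median 303) and 613 to 792 in numbers 2 and 5 (median 706). Every library of numbers 2 and 5 exceeded every library of numbers 1 and 4, and the log2 fold change was 1.15 (SE 0.09). G0s2, the inhibitor of that lipase (chromosome 1, 193272161 to 193273217, minus strand), was lower, with 263 to 324 CPM (median 311) against 19.8 to 34.7 (median 25.1), log2 -3.64 (SE 0.12). Numbers 3 and 6 lay between for both genes, at 431 to 501 CPM for Pnpla2 and 107 to 136 for G0s2.

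Plin1, the perilipin that coats droplets and gates lipolysis, spanned 322 to 374 CPM against 95.4 to 112 (log2 -1.81, SE 0.05), and Plin5, a perilipin of oxidative cells, averaged 3.74 and 1.76 CPM (-1.04). Hormone-sensitive lipase Lipe (0.12), monoglyceride lipase Mgll (0.07) and Abhd5, the coactivator of Pnpla2 (-0.03), differed little. In all, 1 lipase list member was higher and 3 lower of 16, with a median of -0.0026, whose sign depends on the scaling. Of 12 droplet coat genes 3 were lower (Plin1, Plin5 and Cideb) and 0 higher.

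Of 17 triglyceride synthesis genes 2 were lower and 1 higher, with a median of -0.36. Dgat2, which attaches the last fatty acid to make triglyceride, spanned 217 to 242 CPM against 60.4 to 72.9 (log2 -1.86, SE 0.04), and Agpat2, an acyltransferase of an earlier step, 126 to 134 against 57.4 to 63.2 (-1.08, SE 0.03). Pck1, of glycerol production from non-sugar sources, was the higher one, at 8.99 to 10.1 against 16.2 to 21.5 CPM (1.01, SE 0.06).

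Of 17 fatty acid synthesis genes 6 were lower and 0 higher, beside 2.79% and 2.23% of all genes measured, with a median of -0.93. Without overlap, 13 of the 17 were lower and 1 higher, beside 18.2% and 16.7%. Fasn, fatty acid synthase (chromosome 11, 120805846 to 120824547, minus strand), spanned 1049 to 1239 CPM (median 1162) against 367 to 503 (median 370). Its sets lay well apart, with a log2 fold change of -1.54 (SE 0.07). Scd2, a desaturase, spanned 4925 to 5670 CPM against 1323 to 1496 (-1.95, SE 0.05), and Fads1, Fads2, Acss2 and Insig1 were the others. Scd1, the other main desaturase gene, had a log2 fold change of only -0.13 (SE 0.05), with 12440 to 13020 CPM against 10570 to 12560. Scd1 and Scd2 are similar in sequence, and how the authors' counting shared reads between them was not checked.

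All 23 measured genes of cholesterol synthesis and uptake had a negative fold change, with a median of -1.19. Of these, 22 were lower without overlap and 16 past the rule, beside 18.2% and 2.79% of all genes measured. Sqle, squalene epoxidase (chromosome 15, 59315077 to 59331192, plus strand), spanned 96.5 to 117 CPM (median 109.9) against 27.8 to 31.6 (median 28.8). Its sets lay well apart, with a log2 fold change of -1.89 (SE 0.05). Msmo1, a sterol oxidase, spanned 48.2 to 57.8 against 15.4 to 17.1 (-1.75, SE 0.05). Srebf2, the factor that drives these genes, averaged 259 and 128 CPM (-1.03). Numbers 3 and 6 lay between for the list as a whole, with a mean log2 CPM of 5.48 to 5.65 beside 5.83 to 5.94 in numbers 1 and 4 and 4.70 to 4.76 in numbers 2 and 5.

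**Figure D3:**
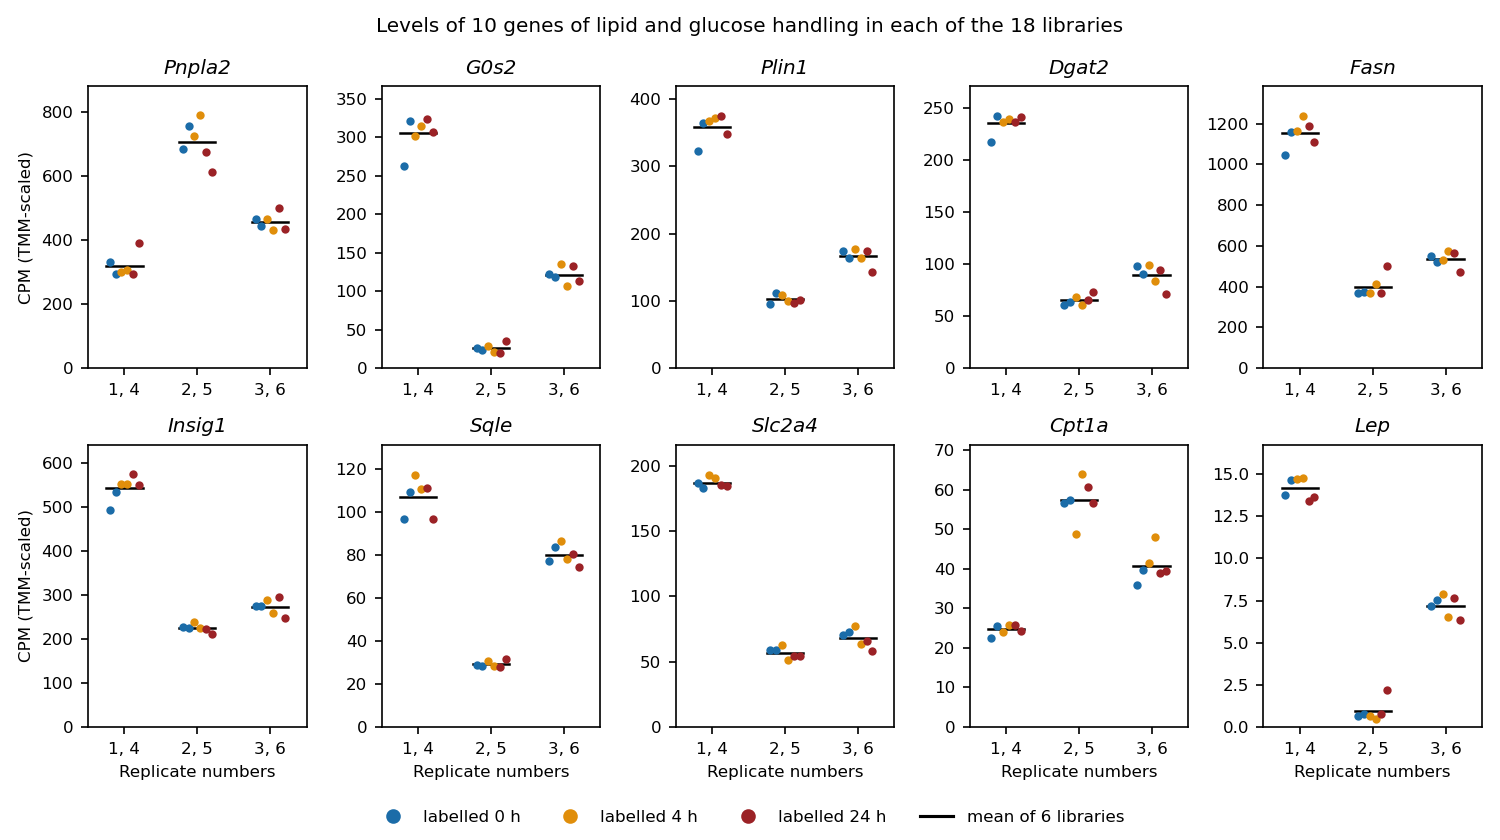
Levels in CPM of 10 genes of lipid and glucose handling in each of the 18 libraries, grouped by replicate numbers and coloured by labelled time, with the mean of 6 libraries as a bar. Pnpla2 and Cpt1a are highest in numbers 2 and 5 and the other 8 genes highest in numbers 1 and 4, with the means of numbers 3 and 6 between.

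Genes that burn fuel in mitochondria differed less in size. Of 21 genes of fatty acid oxidation 1 was higher past the rule and 0 lower, beside 2.23% and 2.79% of all genes measured. That gene, Cpt1a, loads fatty acids for import and spanned 22.5 to 25.9 CPM against 48.8 to 63.9 (log2 1.23, SE 0.05). Without overlap, 7 of the 21 were higher and 3 lower, beside 16.7% and 18.2%. The list median was 0.05, and -0.06 when scaled by library totals alone. Of 39 nuclear genes of oxidative phosphorylation 0 were past the rule in either direction (median -0.14). Of these 39, 10 were lower without overlap, beside 18.2% of all genes measured. The 13 mitochondrially encoded proteins were all negative with a median of -0.22. In the TCA cycle 0 of 24 were past the rule (median -0.06), and 4 were higher and 4 lower without overlap.

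Of 24 genes of glucose uptake and glycolysis 23 had a negative fold change, 3 were past the rule and the median was -0.46. Slc2a4, the insulin-responsive glucose transporter, spanned 183 to 193 CPM against 51.3 to 62.9 (log2 -1.72, SE 0.04). Hexokinase 2, Hk2, spanned 123 to 146 against 42.0 to 48.1, and Pfkfb1, a regulator of phosphofructokinase, 61.5 to 67.1 against 22 to 28.8. Of 20 targets of hypoxia-inducible factors 5 were lower and 0 higher (median -0.47). Ero1l, an oxidase of protein folding, had 525 to 810 CPM against 141 to 172 (-2.25, SE 0.11), with numbers 3 and 6 lower than both at 43.8 on average, and Egln3, an oxygen-sensing hydroxylase, had 27.7 to 46.5 against 12.2 to 16.1 (-1.59, SE 0.12).

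Of 26 targets of the integrated stress response, which ATF4 drives, 5 were lower past the rule, beside 2.79% of all genes measured. Without overlap, 20 of the 26 were lower and 0 higher, beside 18.2% and 16.7%, and the median was -0.37. Slc7a5, an amino acid transporter, spanned 123 to 140.5 CPM against 46.7 to 72.3 (-1.33, SE 0.07), while Atf4 itself had a fold change of -0.11. Of 23 chaperones and genes of the unfolded protein response 0 were past the rule (median -0.33). Without overlap, 17 of these 23 were lower and 0 higher, beside 18.2% and 16.7% of all genes measured. Among the 17 was Hspa5, the main chaperone of the endoplasmic reticulum, at 529 and 339.7 CPM on average. Of 22 NRF2 targets 2 were lower (Slc7a11 and Osgin1) and 1 higher: Cat, catalase, with 254 to 288 CPM against 573 to 638 (1.19, SE 0.04).

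Secreted and signalling factors held several wide gaps. Lep, leptin (chromosome 6, 29060220 to 29073877, plus strand), spanned 13.4 to 14.8 CPM in numbers 1 and 4 (median 14.2) and 0.46 to 2.19 in numbers 2 and 5 (median 0.726). The log2 fold change was -4.25 (SE 0.13), and numbers 3 and 6 lay between at 6.38 to 7.90 CPM. Apln, apelin, spanned 37.4 to 51.6 CPM against 12.9 to 14.4 (-1.81, SE 0.08). Adipoq, adiponectin, was 0.42 higher (SE 0.05), with 397 to 455 against 506 to 620 CPM. Of 20 adipokine genes 4 were lower (Lep, Apln, Fgf21 and Gdf15) and 0 higher, beside 2.79% and 2.23% of all genes measured.

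The insulin-like growth factor axis had 3 higher members and 1 lower of 11, with a median of 0.43. Pappa, a protease that frees the factor from its binding proteins (chromosome 4, 65124174 to 65357509, plus strand), spanned 3.88 to 5.25 CPM against 21.9 to 28.6 (log2 2.53, SE 0.08). Stc1, a stanniocalcin, was the lower one at 10.8 to 17.4 CPM against 4.48 to 6.26 (-1.45, SE 0.11); stanniocalcins are known to inhibit that protease. Igfbp5, a binding protein, spanned 4.40 to 6.22 against 21.4 to 30.7 (2.12, SE 0.08), and Igf1r, the receptor, 15.5 to 18.1 against 35.0 to 40.8 (1.25, SE 0.05). Igf1 itself had a fold change of -0.10.

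Among genes past the rule with at least 32 CPM in the higher set, Mmp11 and Tnc had the largest positive fold changes. Mmp11, stromelysin 3, a protease of tissue remodelling (chromosome 10, 75923222 to 75936496, minus strand), spanned 30.0 to 35.4 CPM (median 32.7) against 229 to 334 (median 299). The gap was wide beside either set, at log2 3.16 (SE 0.08). Tnc, tenascin C, an adhesion-modulating matrix protein (chromosome 4, 63959785 to 64047015, minus strand), spanned 12.9 to 15.3 against 80.1 to 139.6 (2.72, SE 0.12). Wisp1 of the CCN family was higher at 8.03 to 9.86 against 21.3 to 35.4 (1.63, SE 0.07), whereas its relative Cyr61 was lower at 628 to 832 against 84.6 to 139.9 (-2.67, SE 0.12).

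The matrix lists as wholes differed less in size. Of 20 collagen genes 1 was past the rule (Col5a3, 1.13) with a list median of 0.22, and of 20 matricellular genes 2 were higher and 1 lower. Of 19 proteases and inhibitors 2 were higher (Mmp11 and Timp1) and 1 lower (Adamts1). Over all genes measured 2.23% were higher and 2.79% lower. Without overlap, 8 collagen genes were higher and 2 lower, beside 16.7% and 18.2% of all genes. For matricellular genes these counts were 9 and 4, and for proteases and inhibitors 5 and 5. Has2, which makes hyaluronan, and Cd44, its receptor, were the 2 higher genes of 11 (1.18 and 1.05). Grem1 and Fst, secreted antagonists of BMP and activin ligands, were the 2 higher of 15 BMP genes, Grem1 with 13.1 to 17.2 against 43.0 to 88.9 CPM (1.76, SE 0.14).

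Further genes at the top of the higher side with at least 32 CPM were Irf4, a transcription factor of immune cells and adipocytes (8.52 to 13 against 28.5 to 53.7 CPM, 2.30, SE 0.14), Rnf125, a ubiquitin ligase (2.19), Rap1gap2, which switches off the GTPase Rap1 (2.07), Nhsl1 (2.05), Gprin3 (2.03), Slc8b1, a mitochondrial sodium and calcium exchanger (1.92), Kctd12 (1.91) and Fbxo31, part of a ubiquitin ligase (1.85). Their sets did not overlap in any case.

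Clock and immune genes differed gene by gene. Per2 (-1.24) and Cry2 (-1.09), repressors of the clock, were the 2 lower genes of 14 core members, while Arntl was 0.71. Of 13 output genes 4 were lower, beside 2.79% of all genes measured. They were Dbp (32.9 to 37.0 against 9.01 to 11.9 CPM, -1.79, SE 0.06), Usp2 (-2.03), Bhlhe40 (-1.04) and Ccrn4l (-1.01). Of 21 NF-kB and cytokine genes Il1rl1 and Il33 were higher and Nfkbiz and Cxcl1 lower. Il1rl1, the receptor of interleukin 33 (chromosome 1, 40429570 to 40465415, plus strand), spanned 0.339 to 0.922 CPM against 8.15 to 17.8 (log2 4.28, SE 0.14), and Il33 itself 0.171 to 0.435 against 0.741 to 1.55 (2.04, SE 0.30). Interferon response genes gave 0 past the rule of 31, with a median of 0.25.

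**Figure D4:**
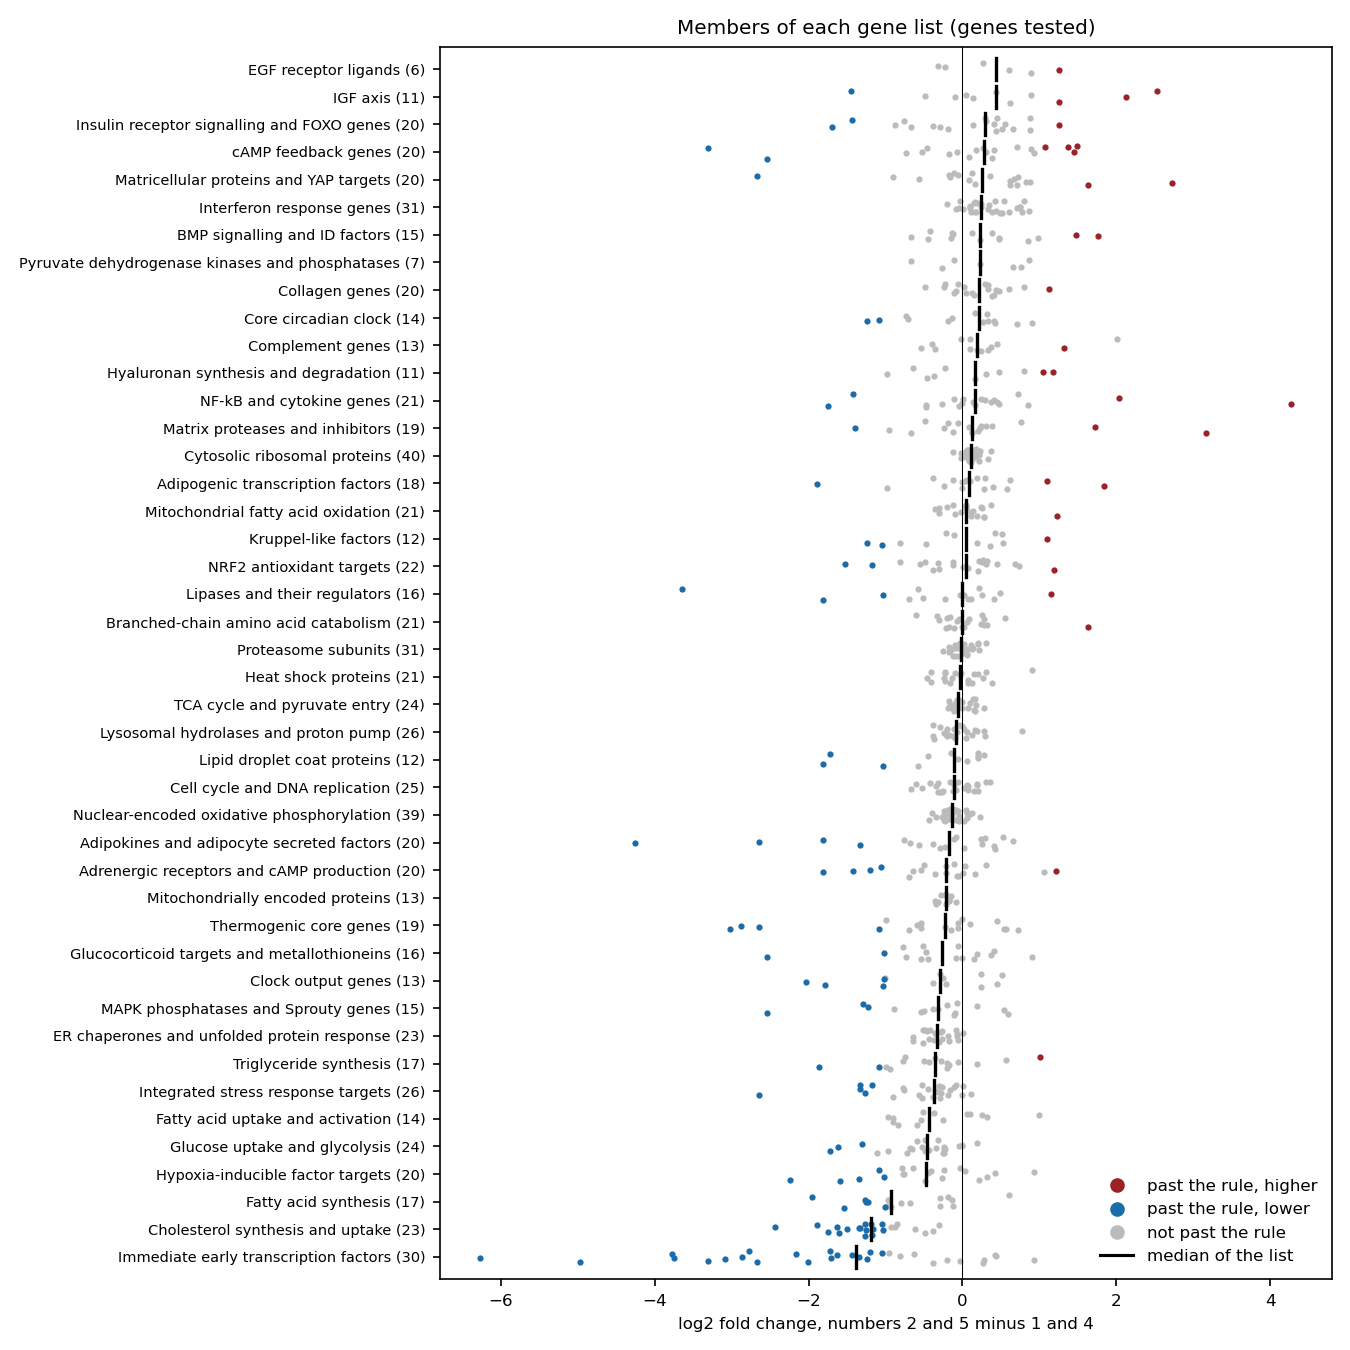
Each point is a measured gene of the named list, placed by its log2 fold change (numbers 2 and 5 minus 1 and 4), with the list's median as a bar and the number of genes measured in parentheses. Immediate early (median -1.39), cholesterol (-1.19) and fatty acid synthesis genes (-0.93) have the lowest medians, and blue and red points are past the rule.

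The label of brown adipocyte was checked against marker genes. All 15 brown adipocyte markers were measured, with a median log2 fold change of -0.06, 10 negative and 5 positive. Their summed CPM was 4119 to 4308 in numbers 1 and 4 and 3056 to 3544 in numbers 2 and 5. Past the rule, 3 were lower (Dio2, Elovl3 and Plin1) and 0 higher. Without overlap, 7 were lower and 1 higher (Adipoq), beside 18.2% and 16.7% of all genes measured. Of 20 preadipocyte and fibroblast markers 15 were measured, with a median of 0.56 and 12 of 15 positive. Past the rule, 1 was higher (Cd24a, with means of 0.457 and 1.49 CPM) and 0 lower. Without overlap, 7 were higher (Cd24a, Pdgfra, Pdgfrb, Dcn, Fbln2, S100a4 and Vim) and 0 lower, beside 16.7% and 18.2% of all genes measured. Their summed CPM was 589.7 to 646 in numbers 1 and 4 and 764 to 1002 in numbers 2 and 5. Smooth muscle markers summed to 709 to 729 against 760.5 to 994 (Tagln higher, Lmod1 lower, median -0.04). White adipocyte markers summed to 271 to 278 against 199.8 to 219, with Tcf21 at 0 and Lep lower. Of the 7 white markers measured 5 were lower and 1 higher without overlap.

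Other cell types had few measured markers. Of 13 skeletal muscle markers 2 were measured and Myod1, Myf5, Myf6 and Ckm were at 0, but Mb, myoglobin, had 66.2 to 83.4 CPM against 25.7 to 37.9. Macrophage and immune markers summed to at most 4.69 CPM (Adgre1, C1qa and Cd3e at 0) and endothelial ones to at most 4.66 (Cdh5 at 0). Neuronal and Schwann cell markers summed to at most 5.39 CPM (Th, Rbfox3 and Sox10 at 0). The part of the preadipocyte and smooth muscle markers in the matrix and growth factor results was not tested. In bulk RNA, fewer cells of a type and less RNA per cell cannot be told apart.

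The single numbers within a set were close to each other. By the same rule with 3 and 3 libraries, 71 genes (0.469%) differed between numbers 5 and 2 and 59 (0.39%) between 4 and 1. Between the sets the counts were 1034 (6.84%) for 2 against 1, 961 (6.35%) for 5 against 4, 981 (6.48%) for 5 against 1 and 1030 (6.81%) for 2 against 4. The median size of a gene's log2 fold change was 0.25 to 0.27 between numbers of different sets and 0.08 and 0.06 within them. Since the sets were chosen for this, these values describe the choice and support nothing further.

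**Figure D5:**
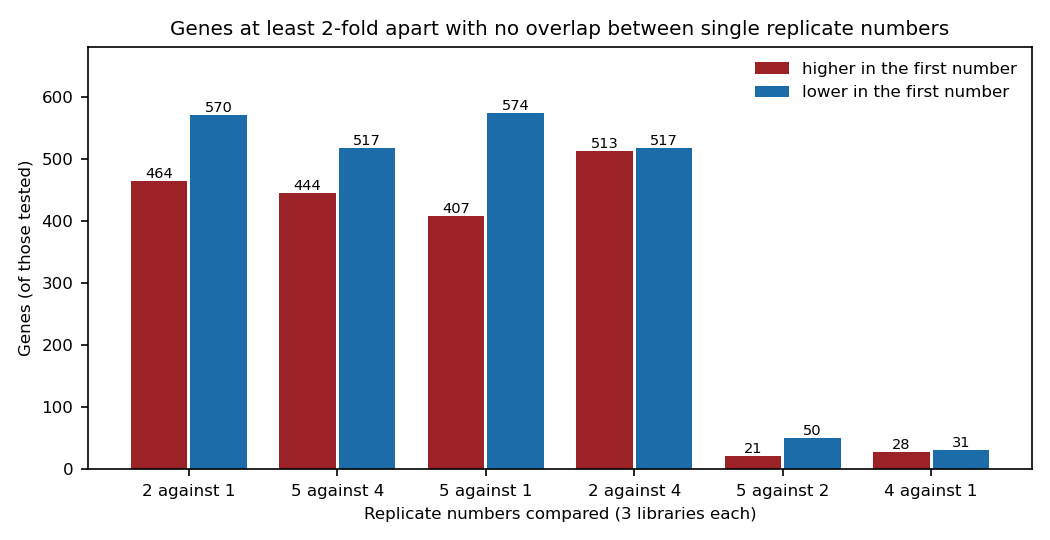
Bars count the genes, of 15128, with a log2 fold change of at least 1 in size and no overlap between the 3 libraries of one replicate number and the 3 of another. The 4 comparisons across the sets reach 407 to 574 genes in each direction, and the 2 comparisons within a set 21 to 50.

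Correlations of deviations from the means of the labelled times describe the same structure across genes. They were 0.34 to 0.60 for 12 pairs of libraries that share a number, 0.25 to 0.58 for 12 pairs with the other number of the set, and -0.60 to -0.28 for 24 pairs across the sets. Pairs with the same labelled time were left out, and genes are not independent replicates. Deviations at each labelled time cancel out over its libraries, so positive values within the sets bring negative ones across them. The sets were chosen from these same expression values, so the correlations support nothing further.

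For the genes past the rule, numbers 3 and 6 fell mostly between. These genes were chosen for a wide gap between the other sets, which by itself favours a place between. Genes short of the rule were not counted. Of the 337 higher genes the mean of numbers 3 and 6 lay between the other sets for 260, beyond numbers 2 and 5 for 57 and beyond numbers 1 and 4 for 20. Of the 422 lower genes these counts were 276, 117 and 29, with immediate early genes such as Fos and Nr4a1 among the 117.

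The genes past the rule were also read at each labelled time. The rule asks for no overlap of these same libraries, so it fixed the direction at each time. The counts describe size only and support nothing further. Of the 337 higher genes 272, 294 and 289 were at least 1 higher in log2 CPM at 0 h, 4 h and 24 h, each the mean of 2 libraries minus the mean of 2, and 215 at all 3 times. Of the 422 lower genes the counts were 354, 356 and 349, with 263 at all 3. Fos differed by -4.79, -4.81 and -5.47 at the 3 times, Mmp11 by 3.08, 3.31 and 3.01, and Pnpla2 by 1.2, 1.32 and 0.93.

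Whether the difference between the sets varied with the labelled time, and whether labelled times differed once the set was held constant, did not enter the choice of the sets and was tested with edgeR's quasi-likelihood test. For the interaction 0 genes passed after Benjamini-Hochberg adjustment (0% of 15128, lowest adjusted p = 0.704), with 441 at an unadjusted p under 0.05. DESeq2 and limma-voom called 0, a fit with the replicate number as a block 3, and scaling by library totals alone 9. For 4 h against 0 h 0 genes passed (0%, lowest adjusted p = 0.307, 847 unadjusted, 2 by DESeq2 and 0 by limma-voom). For 24 h against 0 h 0 passed (0%, 0.127, 935 unadjusted, 28 by DESeq2, 1 by limma-voom and 12 with the replicate block, all 12 higher at 24 h), and for 24 h against 4 h 0 (0%, 0.377, 750 unadjusted, 2 by DESeq2 and 2 by limma-voom). With no filter on low counts the calls were 49 for the interaction and 105, 311 and 165 for the 3 comparisons of times. Without 24 h replicate 2 the interaction had 27 calls. The test of 24 h against 0 h had 27 calls without 4 h replicate 2 and 13 without 24 h replicate 1.

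Among the named genes Il1rl1 had the lowest adjusted p at 24 h against 0 h, 0.127 by edgeR's quasi-likelihood test, with a log2 fold change of 0.80. With the replicate block it passed, at an adjusted p of 0.0143 and a log2 fold change of 0.87 (SE 0.14). In numbers 2 and 5 it had 8.15 and 9.13 CPM at 0 h, 9.65 and 13.9 at 4 h, and 14.8 and 17.8 at 24 h. In numbers 1 and 4 it had 0.532 and 0.559, 0.339 and 0.676, and 0.683 and 0.922 CPM at the same times. Both libraries labelled 24 h were above both labelled 0 h in either set. For Fos, numbers 1 and 4 had 112 and 147 CPM at 0 h, 156 and 203 at 4 h, and 214 and 205 at 24 h. Numbers 2 and 5 had 4.12 and 5.00, 5.49 and 7.12, and 5.24 and 4.07 CPM. The fold change of Fos for 24 h against 0 h was 0.62 (adjusted p = 0.541, edgeR).

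Library totals overlapped between the sets. Expected counts totalled 11258673 to 26501223 per library in numbers 1 and 4 (20151062 ± 5025129, SD, n = 6) and 7010742 to 22875462 in numbers 2 and 5 (16369465 ± 6219023, SD, n = 6), with an exact two-sided permutation p of 0.271 for the difference in means, where 0.00216 is the smallest p possible. One library stood apart: 24 h replicate 5, the shallowest, had 41.5% of its counts on Yam1 and Gm26917, which collect ribosomal RNA reads, and the other 11 had 6.78% to 10.6%. Without it 404 genes were higher and 466 lower, and 332 of the 337 and 409 of the 422 were still among them. The log2 fold changes without it were -4.93 for Fos, 3.21 for Mmp11, 1.2 for Pnpla2 and -4.35 for Lep. The median SD of log2 CPM within numbers 2 and 5 was 0.139 with it and 0.106 without it, beside 0.099 within numbers 1 and 4.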

How the data were processed

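Total RNA of BMC brown adipocytes was sequenced from libraries depleted of ribosomal RNA with a stranded kit, per the labels' protocols. The authors deposited expected counts per gene, estimated by salmon, as the labels name the table; of the values above 0, 27.4% held fractions. Tools and build listed in the submitters' processing notes are edgeR, limma and mm10. Not given in the sources used here were the annotation, the salmon version and the strand setting of the counting, so values of near-identical or overlapping genes are uncertain. Positions are from GENCODE M21 (mm10).

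Counts were rounded. Of 45706 genes, 26331 had a count, and 15128 passed filterByExpr (minimum count 10, minimum total 15, by set and labelled time) in the 12 libraries. edgeR 4.0.16 (R 4.3.3) fitted robust quasi-likelihood models with TMM scaling. CPM use TMM-scaled totals, and log2 CPM a prior count of 2. Numbers 3 and 6 were scaled with all 18 libraries and brought to the scale of the 12. SE is that of the log2 fold change. Adjusted p-values are Benjamini-Hochberg, threshold 0.05. Totals of 7010742 to 26501223 counts set the precision, and low genes carry more counting error. Library pairs differed beyond sampling noise. Alternatives were DESeq2 1.42.0, limma-voom 3.58.1, other scalings and filters, a replicate block and each library left out. The code was tested on simulated data. Figures used matplotlib 3.10.9.

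The members and the 53 gene lists (1023 of 1027 entries matched) were chosen with earlier results of these data known. The 103 named genes are 22 anchors of brown fat, the 10 highest and 10 lowest past the rule with at least 32 CPM in the higher set (predicted, RIKEN, mitochondrially encoded and ribosomal RNA genes left out), up to 3 members past the rule per list, and any gene called in a tested comparison, of which there was none. Other genes were named after their values were seen, and some measured genes are not reported here.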

Additional observations from a re-analysis of the deposited data

Results flagged for a closer look

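Single libraries lying far from the other 5 of their set are listed here. The gap of the highest or lowest library to its neighbour exceeded Dixon's 95% critical value for 6 samples in 25 of 218 groups examined, and chance flags about 1 in 20 groups. Of these, 13 concern 24 h replicate 5.

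In 24 h replicate 5 the share of counts on Yam1 and Gm26917 was 41.5%, that of mitochondrial ribosomal RNA 18.1%, that of Lars2 4.30% and that of mitochondrially encoded proteins 2.91%. Among the genes, this library was lowest in its set for Dio2 (0 CPM), Pdk4 (217), Btg2 (15.7), Irf4 (28.5), Cideb (0.313) and Igf1r (35.0), and highest for Lep (2.19), Igfbp5 (30.7) and Grem1 (88.9).

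In 24 h replicate 4, Irf4 (13 CPM) and Fbxo31 (35.9) were the highest of numbers 1 and 4, and Ero1l (525), Egln3 (27.7) and Cd24a (0) the lowest. In 0 h replicate 1, G0s2 (263 CPM) and Dgat2 (217) were the lowest of that set. Within numbers 2 and 5, 0 h replicate 2 was lowest for Bhlhe40 (44.1 CPM), Sgk1 (11.8) and Gdf15 (6.62), and 4 h replicate 2 was highest for Adrb3 (30.4) and Msmo1 (17.1).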

How the results depend on the processing

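Every fold change of the 103 named genes kept its sign under the alternatives run. By library totals without TMM, 146 genes were higher and 521 lower, and 143 of the 337 stayed among the higher. Under that scaling 66 of the named fold changes and list medians shifted by more than the spread between libraries. The TMM factor was 0.456 for 24 h replicate 5, the library rich in ribosomal RNA, and 0.964 to 1.113 for the others compared. The part of that library in the lower count of higher genes was not tested. The medians of 8 lists changed sign under at least 1 alternative, those of lipases, fatty acid oxidation, branched-chain amino acid, NRF2, adipogenic, KLF, proteasome and endothelial genes. At a log2 fold change of at least 0.5 the counts were 1069 and 1255. Leaving out 1 library gave 353 to 404 higher and 413 to 476 lower genes, and a difference in mean totals from -5560075 to -1909853 counts.

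For the tests of time, calls are given in the order interaction, 4 h against 0 h, 24 h against 0 h and 24 h against 4 h. They were 0, 2, 28 and 2 with DESeq2, 0, 0, 1 and 2 with limma-voom, 9, 3, 3 and 5 by library totals without TMM, and 49, 105, 311 and 165 with no filter on low counts. Leaving out 1 library gave 0 to 27, 0, 0 to 27 and 0; the group left with 1 library is then assumed to vary like the others. Without 4 h replicate 1, 4 or 5 the interaction had 2, 2 and 4 calls. The causes were not tested.

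With the replicate block, 336 genes were higher and 424 lower, and the tests of time gave 3, 0, 12 and 0 calls. Libraries sharing a number deviated together from the means of their labelled times, but with the set also taken out these correlations were only -0.01 to 0.10, so the numbers are not shown to pair libraries within a set.

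The 6 libraries a set and low counts limit the precision, and 1 library can decide the value of a gene near the floor.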

Other observations

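Several lists not described above had few or no genes past the rule. Of 40 cytosolic ribosomal protein genes 0 were past the rule and 37 had a positive fold change. In numbers 2 and 5, 10 of the 40 were higher without overlap, beside 16.7% of all genes measured. The list's median log2 fold change was 0.11, and 0.0008 when scaled by library totals alone. Reads of these genes can be shared with their pseudogenes. Proteasome subunits (median -0.02, 0 of 31 past the rule), heat shock proteins (-0.03, 0 of 21) and lysosomal genes (-0.08, 0 of 26) were near the median of all genes. Fatty acid uptake genes (-0.44, 0 of 14) and creatine cycling genes (-0.56, 0 of 4) had lower medians. Of the 14 uptake genes 8 were lower and 3 higher without overlap, beside 18.2% and 16.7% of all genes measured. Single members were past the rule among EGF receptor ligands (Nrg1, 1.25), complement genes (C4b, 1.32) and endothelial markers (Flt1, 1.67), each higher in numbers 2 and 5.

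Cell cycle and replication genes gave 0 past the rule of 25, with a median of -0.11. Without overlap, 11 of them were lower and 5 higher, beside 18.2% and 16.7% of all genes measured. Mki67, a marker of cycling cells, averaged 892 CPM in numbers 1 and 4 and 562 in numbers 2 and 5 (log2 -0.67), while Mcm7, a subunit of the replication helicase, averaged 166 and 213 (0.36). Adipogenic factors went both ways: Pparg, the main regulator of fat cell differentiation, had a fold change of 0.10 and Cebpa one of 0.62, Klf5 (1.10) and Creb3l1 (1.84) were higher and Zfp467 (-1.88) was lower. In insulin signalling, Irs1 and Irs2, the receptor substrates, had values of 0.66 and 0.55, and Trib1, a pseudokinase, was lower at 168 to 200 CPM against 49.4 to 58.3 (-1.69, SE 0.04). Sgk1, a kinase that glucocorticoids induce, had 29.9 to 36.9 CPM against 11.8 to 16.9 (-1.02, SE 0.07), and Fkbp5, another glucocorticoid target, a fold change of -0.06. Bcat1, of branched-chain amino acid breakdown, was the only one of 21 such genes past the rule (1.63, SE 0.19), at 0.991 to 1.31 against 2.41 to 6.88 CPM.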
